A study of Mus musculus with 52 samples.

Results

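The promoters of 10 transcription factor genes that maintain naive pluripotency in mouse embryonic stem cells (mESCs), Pou5f1, Sox2, Nanog, Prdm14, Tbx3, Klf2, Klf4, Esrrb, Tfcp2l1 and Zfp42, were followed through the loss of KDM2A and KDM2B domains. The genes were chosen by name, and every promoter whose RefSeq identifier maps to one of these symbols was taken, which gave 11 promoters of the 20633 measured, since Esrrb has a pair of annotated start sites. Accessibility was measured by calibrated ATAC-seq, in which the Tn5 transposase tags open DNA and Drosophila cells mixed into each sample set the scale. The value of a promoter is the number of reads in the 400 bp around its start site, divided by the spike-in size factor of the library (calibrated reads).

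The cells came from 4 lines that all carry floxed alleles and a CreERT2 recombinase in the Rosa26 locus, which tamoxifen activates. Kdm2a/b-JmjC fl/fl cells, which were derived from mice, lose the exons of the JmjC demethylase domain of both genes, and with them the long forms of both proteins. Kdm2a/b-CXXC fl/fl cells lose the ZF-CxxC domain, the part that binds CpG islands, of both proteins; they were made by targeting Kdm2a in Kdm2b-CXXC fl/fl cells. Kdm2a-CXXC fl/fl cells lose that domain from KDM2A alone, and Kdm2b-CXXC fl/fl cells from KDM2B alone. In each line untreated cells were set against cells given 4-hydroxytamoxifen at 800 nM for 96 h, with 3 libraries in each group and 4 in each group of Kdm2a/b-CXXC, 26 libraries in all. The untreated cells carry the same floxed alleles and the same recombinase, and no line without floxed alleles was analysed here, so that the response to the drug and the loss of the domain cannot be told apart. A line stands for a single derivation, and nothing in the labels says that the replicates of a line were separate derivations, so that p-values measure the spread between these libraries only.

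The naive state is held by a small circuit of DNA-binding proteins that activate their own genes and one another. POU5F1 (OCT4) and SOX2 bind together at its centre with NANOG, KLF2 acts alongside its relative KLF4, and ESRRB, KLF4, TFCP2L1 and TBX3 pass on the signals of leukaemia inhibitory factor and of the WNT pathway, while PRDM14 represses FGF signalling and DNA methylation and ZFP42 (REX1) is a marker of the state. The ZF-CxxC domain of the KDM2 proteins binds unmethylated CpG dinucleotides, which are dense in the CpG islands that cover many promoters, and the JmjC domain removes methyl groups from histone H3.

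The sequences of the 250 bases before the start site show how unlike these promoters are. They were taken from RefSeq (GRCm38.p6, the build called mm10), which had a window for 9 of the 11 promoters, that of Sox2 placed a few bases off the centre of its measured interval; Tbx3 and Prdm14 had none. Shown are the promoter with the composite OCT and SOX element (Nanog), the other promoters that carried an OCT element (Sox2 and Zfp42), the promoters of Pou5f1 and Tfcp2l1, whose values the results below turn on, and Klf4 as the most CpG-rich of the set. Capitals mark the motifs searched for on both strands, which were ATGCAAA (OCT), CATTGT (SOX), AAGGTCA (ESRRB), TTCCNGGAA (STAT), GGGCGG (the GC box of KLF and SP proteins), CCACACCC (a CACCC box) and TATAAA (the TATA box). Each is written 5′ to 3′ along the strand of its gene.
Pou5f1 (chr17:35505782-35506031, plus strand): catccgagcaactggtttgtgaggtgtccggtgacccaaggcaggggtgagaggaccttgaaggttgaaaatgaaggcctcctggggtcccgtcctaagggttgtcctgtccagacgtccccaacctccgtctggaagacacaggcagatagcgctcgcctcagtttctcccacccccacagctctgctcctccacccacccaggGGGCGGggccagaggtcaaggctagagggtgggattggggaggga
Nanog (chr6:122707239-122707488, plus strand): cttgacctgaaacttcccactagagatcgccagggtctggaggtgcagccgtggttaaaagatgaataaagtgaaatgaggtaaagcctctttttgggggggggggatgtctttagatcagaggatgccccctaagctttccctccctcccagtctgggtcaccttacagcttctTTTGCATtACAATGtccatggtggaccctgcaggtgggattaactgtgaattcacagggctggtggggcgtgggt
Sox2 (chr3:34649745-34649994, plus strand): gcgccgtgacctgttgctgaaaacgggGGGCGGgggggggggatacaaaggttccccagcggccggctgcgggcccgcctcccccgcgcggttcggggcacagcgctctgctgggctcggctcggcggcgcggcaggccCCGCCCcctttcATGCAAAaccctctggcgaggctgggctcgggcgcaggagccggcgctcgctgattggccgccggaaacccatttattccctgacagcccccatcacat
Zfp42 (chr8:43307010-43307259, minus strand): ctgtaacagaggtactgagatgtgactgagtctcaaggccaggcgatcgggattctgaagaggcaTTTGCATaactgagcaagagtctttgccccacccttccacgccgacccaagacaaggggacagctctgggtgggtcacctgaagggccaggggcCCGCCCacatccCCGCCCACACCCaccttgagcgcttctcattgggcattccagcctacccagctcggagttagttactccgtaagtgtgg
Tfcp2l1 (chr1:118627695-118627944, plus strand): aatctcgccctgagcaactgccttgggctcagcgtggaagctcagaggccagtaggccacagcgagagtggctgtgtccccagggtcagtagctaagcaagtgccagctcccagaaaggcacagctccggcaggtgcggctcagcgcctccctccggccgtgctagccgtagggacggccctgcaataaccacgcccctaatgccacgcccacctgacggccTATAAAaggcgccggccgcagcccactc
Klf4 (chr4:55532476-55532725, minus strand): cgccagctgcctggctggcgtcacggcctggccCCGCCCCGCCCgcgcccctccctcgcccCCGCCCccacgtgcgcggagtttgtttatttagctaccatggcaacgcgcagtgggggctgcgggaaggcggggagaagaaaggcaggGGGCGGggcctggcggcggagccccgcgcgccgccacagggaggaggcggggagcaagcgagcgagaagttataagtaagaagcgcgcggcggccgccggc

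The measured intervals of the members not printed here were chr5:119670662-119671061 (Tbx3, NM_198052), chr1:13126964-13127363 (Prdm14, NM_001081209), chr8:72318862-72319261 (Klf2, NM_008452), and chr12:86360917-86361316 (NM_001159500) and chr12:86421444-86421843 (NM_011934) for the upstream and downstream starts of Esrrb.

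In this and the next paragraph, all promoters means the 13534 with a matching window. The OCT letters were present in 3 of the 9 promoters (Nanog, Sox2 and Zfp42), against 3.75% of all promoters. In Nanog they spanned bases -75 to -69 from the start site, beside the only SOX match of the set at -67 to -62, letters that 8.23% of all promoters carried. The GC box was found in 5 of the 9 (Pou5f1, Sox2, Klf2, Klf4 and Zfp42), against 46.9% of all promoters, and Klf4 held 4 copies, a pair of them overlapping. A CACCC box occurred in Zfp42, where it shared letters with a GC box (3.42% of all promoters had one), and a TATA box in Tfcp2l1, 28 bases before the start site (9.45%). The ESRRB and STAT letters, in 3.53% and 0.909% of all promoters, were in none of the 9 windows, which says nothing of binding by these proteins.

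The observed to expected CpG ratio over the same bases ran from the 16.7 percentile of all promoters (Nanog) to the 87.1 percentile (Klf4). It was 0.18 in Nanog, 0.19 at the downstream start of Esrrb, 0.26 at its upstream start, 0.33 in Pou5f1 and 0.42 in Zfp42, all below the median of 0.59 over all promoters. It was 0.61 in Tfcp2l1, 0.83 in Sox2, 0.92 in Klf2 and 0.94 in Klf4. Of the 9 promoters, 5 were thus below and 4 above the median. The ratio describes bases before the start site only, and so only part of the 400 bp in which reads were counted.

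The libraries held between 1.49 and 3.03 M promoter reads. A member promoter had between 26 and 565 reads in a library, apart from the upstream start of Esrrb with 4 to 20. This promoter did not pass the filter on low reads in Kdm2a/b-CXXC, where 10 member promoters were tested; 11 were tested in each of the other lines. In Kdm2b-CXXC both replicate 1 libraries lay high on the calibrated scale at most members, as the plot of every library shows.

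**Figure D1:**
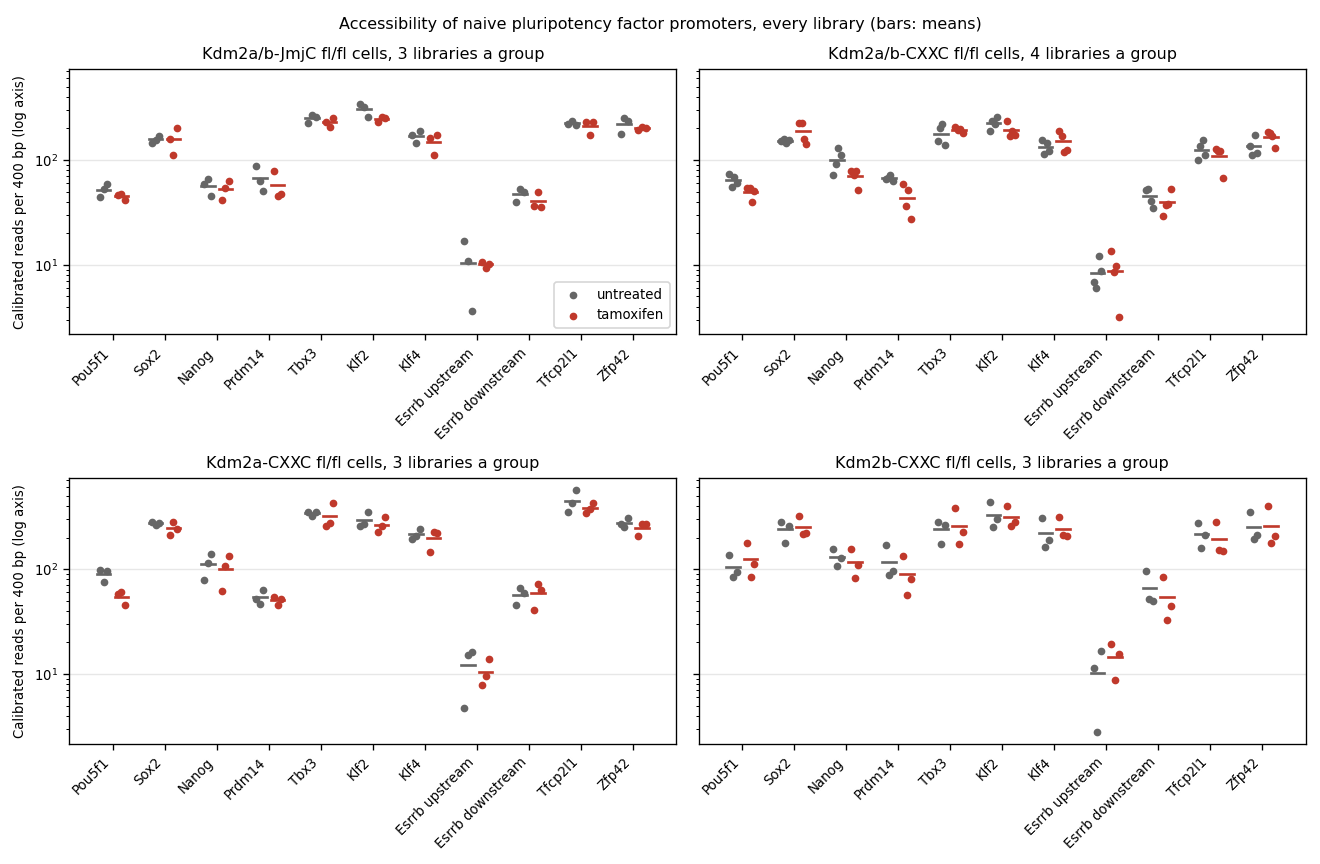
Calibrated ATAC reads per 400 bp promoter (log axis) in every library of the 4 lines, untreated in grey and after tamoxifen in red, with bars at the group means. Klf2, Tbx3, Tfcp2l1, Zfp42, Sox2 and Klf4 had higher group means than Pou5f1, Nanog and Prdm14 in every line, and the upstream start of Esrrb lay between 2.83 and 19.5.

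In untreated cells the members fell into a more and a less accessible set. RPM values, the reads of a promoter scaled to the promoter reads of its library, were used here, because each line had its own calibration. The promoters of Klf2, Tbx3, Tfcp2l1, Zfp42, Sox2 and Klf4 had mean values between 81.9 and 192 in every line and lay between the 78.1 and the 99.1 percentile of all 20633 promoters. Those of Nanog, Prdm14, Pou5f1 and the downstream start of Esrrb had means between 23.3 and 66.4 and lay between the 39.9 and the 68.4 percentile. The upstream start of Esrrb was close to closed, with means of 4.47 to 5.72 and percentiles of 17.2 to 19.2. The most accessible of the 4 lower promoters in a line, Nanog at 66.4 in Kdm2a/b-CXXC, still had a lower mean than the lowest of the upper set there, Tfcp2l1 at 81.9. The libraries behind these means overlapped (48.4 to 83.2 for Nanog and 67.2 to 98.2 for Tfcp2l1), so that at this boundary the sets differed in their means only.

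The order of the levels was similar but not fixed. Klf2, which encodes a Krüppel-like factor, came first in 3 lines, with 168 ± 22.7 RPM in Kdm2a/b-JmjC (SD, n = 3), 149 ± 19.3 in Kdm2a/b-CXXC (SD, n = 4) and 144 ± 3.81 in Kdm2b-CXXC (SD, n = 3). In Kdm2a-CXXC Tfcp2l1 was first with 192 ± 31.4 (SD, n = 3), followed by Tbx3 with 148 ± 13.4 and Klf2 with 125 ± 11.6. Neighbours in this order mostly did not differ beyond their spread: in Kdm2a/b-CXXC, Sox2 (92.8 to 107), Zfp42 (70.7 to 111), Klf4 (72.6 to 104) and Tfcp2l1 (67.2 to 98.2) overlapped, as did Prdm14 (42.7 to 46.1) and Pou5f1 (35 to 50.4). The step from Pou5f1 to the downstream start of Esrrb (23.9 to 34.9) was free of overlap in that line, though barely.

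**Figure D2:**
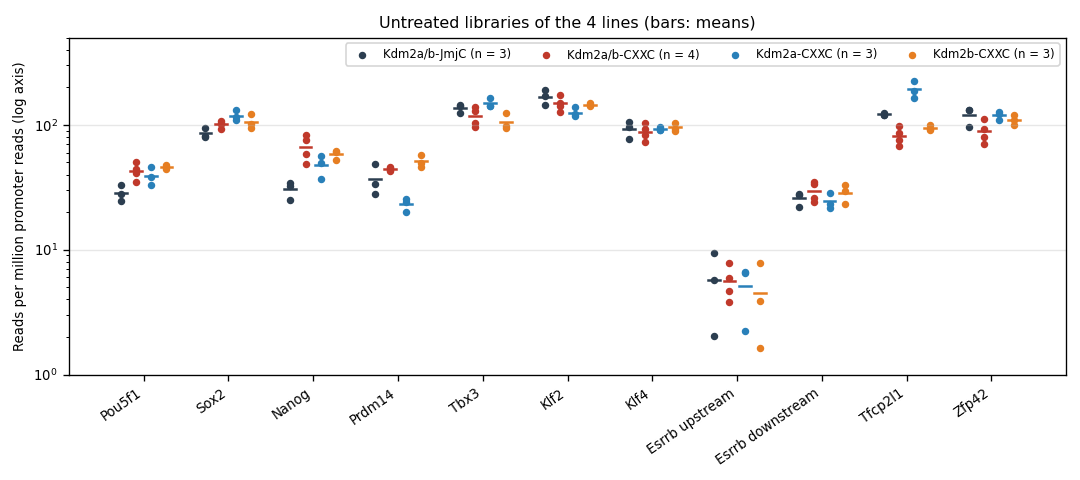
RPM values (log axis) at each member promoter in the untreated libraries, 1 colour per line, with bars at the means. Tfcp2l1 in Kdm2a-CXXC (163.8 to 226) lay above every other untreated library, Nanog in Kdm2a/b-JmjC (25 to 34.4) and Prdm14 in Kdm2a-CXXC (20.2 to 25.5) below.

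At 3 member promoters a line stood apart from the others before any treatment. Tfcp2l1, which encodes a STAT3 target that is sufficient to sustain self-renewal, was the extreme case. Its untreated values were 164, 187 and 226 RPM in Kdm2a-CXXC, against 120 to 123 in Kdm2a/b-JmjC, 90.5 to 100.4 in Kdm2b-CXXC and 67.2 to 98.2 in Kdm2a/b-CXXC, so that the highest and the lowest line mean were 2.35-fold apart. All untreated libraries of Kdm2a-CXXC lay above all those of the other lines at 5.15% of the 13267 promoters with at least 20 RPM on average, and Tfcp2l1 was the 1 member among them; its tamoxifen libraries were likewise above all others.

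This difference was not particular to the gene. The 8 other promoters within 1 Mb of Tfcp2l1 were at a median of 1.95 times the mean over the remaining lines in untreated Kdm2a-CXXC cells, between 1.85 and 2.23 times, and Tfcp2l1 itself was at 1.94 times. The median was 1.91 for 14 promoters between 1 and 5 Mb downstream and 2.03 for 16 promoters between 5 and 10 Mb, whereas over the 763 promoters of chromosome 1 it was 1.05. In the other direction 1 promoter was compared beyond 1 Mb, that of Dsel between 5 and 10 Mb away, at 1.24 times. A higher copy number of this stretch of chromosome 1 in the Kdm2a-CXXC line and a higher accessibility of all its promoters cannot be told apart in these values, and input genomic DNA was not analysed here.

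Nanog showed the same kind of regional difference in part. It was lowest in untreated Kdm2a/b-JmjC cells, at 25, 32.5 and 34.4 RPM, below every untreated library of the other lines (36.8 to 83.2), where 1.79% of promoters were all below; after tamoxifen the lines overlapped. Relative to the other lines it was at 0.53 times, against 0.77 at the median of the 7 other promoters within 1 Mb. In untreated Kdm2a/b-CXXC cells Nanog was at 1.46 times the other lines and its 7 neighbours at 1.45 times, and the 53 promoters 1 to 5 Mb downstream at 1.45 times. Chromosome 6 as a whole was at 1.10 times in that line. In Kdm2a-CXXC the neighbours were at 0.67 times and Nanog at 0.92 times.

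Prdm14 in untreated Kdm2a-CXXC cells was lower, relative to the other lines, than the promoters around it. Its untreated values of 20.2, 24.2 and 25.5 RPM in Kdm2a-CXXC lay below every untreated library of the other lines (28.1 to 57.3), a pattern found at 5.40% of promoters. It was at 0.53 times the remaining lines, while the 6 other promoters within 1 Mb were at a median of 0.85 and chromosome 1 at 1.05. After tamoxifen the lines overlapped. Untreated Prdm14 was also below its neighbours in Kdm2a/b-JmjC, at 0.93 against 1.29. It was above them in Kdm2a/b-CXXC (1.20 against 0.92) and in Kdm2b-CXXC (1.47 against 0.91). Chromosome-wide values went with some members and not with others. Chromosome 8, with Klf2 and Zfp42, was at 1.27 times the other lines in Kdm2a/b-JmjC, where Klf2 was at 1.20 and Zfp42 at 1.14. Chromosome 3, with Sox2, was at 1.22 times in Kdm2a-CXXC, where Sox2 was also at 1.22. By contrast, chromosome 1 was at 1.28 times in Kdm2a/b-JmjC, where Tfcp2l1 was at 0.99 and Prdm14 at 0.93. In Kdm2a-CXXC chromosome 8 was at 0.83 times, with Klf2 at 0.82 and Zfp42 at 1.13. Klf4 varied least, with line means between 88.1 and 95.4.

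**Figure D3:**
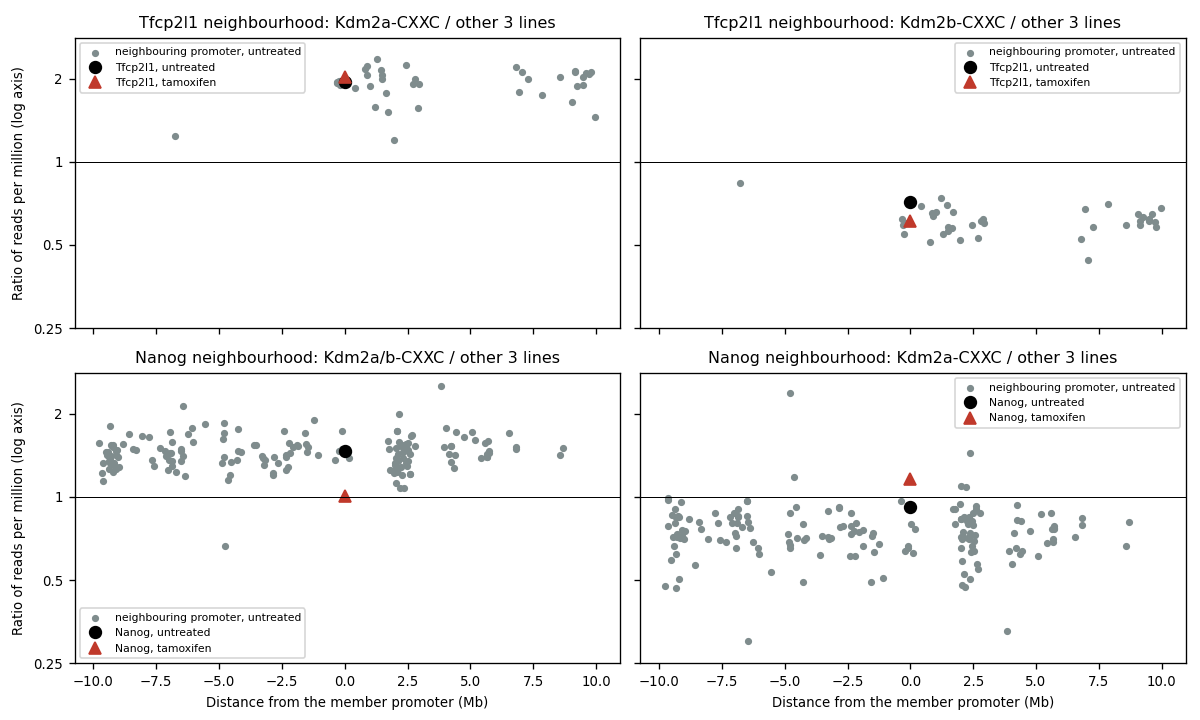
Ratio of RPM in 1 line to the mean of the other 3 lines (log axis) for promoters within 10 Mb of Tfcp2l1 (top, Kdm2a-CXXC and Kdm2b-CXXC) and Nanog (bottom, Kdm2a/b-CXXC and Kdm2a-CXXC), against distance in Mb. Grey points are neighbouring promoters in untreated cells, black circles the member in untreated cells and red triangles the member after tamoxifen. Tfcp2l1 sits among its neighbours near 1.95 in Kdm2a-CXXC, and Nanog in Kdm2a/b-CXXC sits at 1.46 before and 1.01 after tamoxifen, among neighbours at a median of 1.45 and 1.42.

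Whether loss of KDM2 domains changed the accessibility of the naive factors was asked next, within each line and on the calibrated scale. A promoter was called where its change exceeded 1.4-fold with an adjusted p under 0.05, and no member was called in any line (limma with Benjamini-Hochberg adjustment over all promoters tested). The same thresholds called 0.0757% of all promoters in the JmjC line and 0% in each of the 3 CXXC lines. The smallest adjusted p of a member was 0.135 (Kdm2a/b-JmjC, Klf2), 0.863 (Kdm2a/b-CXXC, Prdm14), 0.581 (Kdm2a-CXXC, Pou5f1) and 1.00 (Kdm2b-CXXC). At an unadjusted p under 0.05 there was 1 member of 11 in Kdm2a/b-JmjC (Klf2) against 20.6% of all promoters, 2 of 10 in the double CXXC line (Prdm14 and Nanog) against 4.65%, 1 of 11 in Kdm2a-CXXC (Pou5f1) against 8.39%, and 0 of 11 in Kdm2b-CXXC against 0.669%. All 4 of these values were lower after tamoxifen. In bulk cells, fewer cells with an open promoter and less signal per cell cannot be told apart.

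The median log2 fold change of the members was -0.13 in the JmjC line, where that of all promoters was -0.21, and -0.20 in Kdm2a/b-CXXC, where it was 0.087. In Kdm2a-CXXC the values were -0.14 and -0.18, and in Kdm2b-CXXC 0.0048 and 0.099. The median of the members thus lay above the general shift in the 2 lines where promoters as a whole were lower after tamoxifen. It lay below in the 2 lines where promoters as a whole were higher. Single members were on both sides: 3 of 11, 6 of 10, 2 of 11 and 8 of 11 were below the median of all promoters, in the same order of lines.

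Of the core factors, Pou5f1 had the largest difference on the calibrated scale. In Kdm2a-CXXC it had 98.4, 75.4 and 96.2 calibrated reads in untreated cells and 57.5, 60.95 and 45.7 after tamoxifen. These groups did not overlap, a pattern seen with tamoxifen below at 13.4% of all promoters in this line. The log2 fold change was -0.71 (95% interval -1.16 to -0.25; limma adjusted p = 0.581), from a mean of 90.0 ± 12.7 to one of 54.7 ± 8.01 (SD, n = 3 each). With the replicate number as a block the same difference was called (limma adjusted p = 0.0327), as 1 of 188 promoters. In Kdm2a/b-CXXC, whose cells lose the same domain of KDM2A as well as that of KDM2B, Pou5f1 had 74.1, 54.8, 69.3 and 60.02 calibrated reads untreated and 54.1, 53.5, 40.1 and 50.6 after tamoxifen. Again the treated libraries were each below every untreated one, which 0.597% of promoters in that line did, and the log2 fold change was -0.38 (95% interval -0.82 to 0.069; limma adjusted p = 0.996). In Kdm2a/b-JmjC the values were 44, 52.6 and 59.6 against 45.9, 47.8 and 42, and in Kdm2b-CXXC 135, 83.6 and 93.1 against 178, 84.8 and 112. Both of these pairs overlapped, with log2 fold changes of -0.19 and 0.23. The test of a difference between the 4 lines gave no adjusted p under 0.05 for Pou5f1 (F test of the interaction in limma, adjusted p = 0.953).

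Sox2, whose protein is the partner of POU5F1, had values of both signs. Its log2 fold changes were 0.26 in Kdm2a/b-CXXC and 0.085 in Kdm2b-CXXC, but -0.03 in Kdm2a/b-JmjC and -0.16 in Kdm2a-CXXC, and treated and untreated libraries overlapped in every line. In Kdm2a/b-CXXC the untreated values were narrow (145 to 159) and the treated ones were 225, 222, 158 and 142, with 2 libraries above and 1 below the untreated range.

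Nanog had 71.1, 91.7, 130.3 and 110.4 calibrated reads in untreated Kdm2a/b-CXXC cells and 78.8, 72.1, 79.2 and 52.2 after tamoxifen. The ranges overlapped through 1 untreated library, and the log2 fold change was -0.49 (95% interval -0.90 to -0.09; limma adjusted p = 0.996). In the other lines the log2 fold changes were -0.09 in Kdm2a/b-JmjC, -0.17 in Kdm2a-CXXC and -0.20 in Kdm2b-CXXC, each with overlapping groups.

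Prdm14, whose protein recruits Polycomb repression to FGF receptor and DNA methyltransferase genes, had the clearest separation in Kdm2a/b-CXXC. The untreated libraries were at 66.2, 66.8, 72.2 and 62.9 calibrated reads and the treated ones at 58.6, 36.5, 51.8 and 27.3. All 4 treated libraries were below, as at 0.597% of promoters in this line. The log2 fold change was -0.67 (95% interval -1.12 to -0.22, limma adjusted p = 0.863). In Kdm2b-CXXC the values were 169, 87.1 and 96.6 untreated and 134, 56.2 and 80.8 after tamoxifen, a log2 fold change of -0.41 with overlapping groups (limma adjusted p = 1.00). It ranged from -0.73 without tamoxifen replicate 1 to -0.11 without untreated replicate 1. In Kdm2a-CXXC and Kdm2a/b-JmjC the log2 fold changes were -0.08 and -0.24.

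Of the remaining factors, Klf2 had 342, 322 and 258 calibrated reads in untreated Kdm2a/b-JmjC cells and 227, 259 and 249.7 after tamoxifen, a log2 fold change of -0.32 (95% interval -0.55 to -0.08; limma adjusted p = 0.135). These groups overlapped through 1 library on each side. No member promoter of this line had all treated libraries below all untreated ones, although 23.2% of all its promoters did, and in Kdm2b-CXXC no member and 0.446% of promoters did. Klf4, Tbx3, Tfcp2l1 and Zfp42 overlapped between treated and untreated cells in all 4 lines. Their log2 fold changes lay between -0.21 and 0.31, with the highest at Zfp42 in Kdm2a/b-CXXC (136, 111, 174 and 117 calibrated reads untreated, and 184, 182, 167 and 131 after tamoxifen; limma adjusted p = 0.996).

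The estrogen-related receptor gene Esrrb overlapped at both starts in every line. At the downstream start the log2 fold change was -0.19 in Kdm2a/b-CXXC, -0.33 in Kdm2b-CXXC, 0.032 in Kdm2a-CXXC and -0.22 in the JmjC line. At the upstream start it was -0.06 in Kdm2a-CXXC, 0.15 in the JmjC line and 0.66 in Kdm2b-CXXC, the last with a 95% interval from -0.51 to 1.83, and at this depth a difference of that size could not be told from 0.

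**Figure D4:**
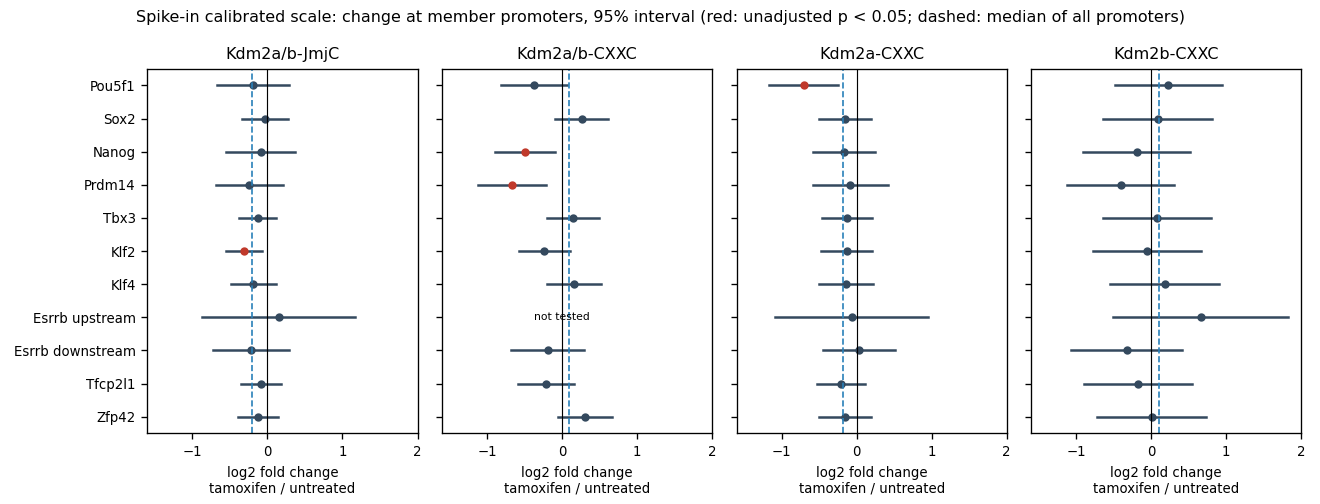
Log2 fold change of calibrated reads after tamoxifen at each member promoter, with 95% intervals, 1 panel per line. Red points have an unadjusted limma p under 0.05 and the dashed line is the median of all promoters in the line, from -0.21 in Kdm2a/b-JmjC to 0.099 in Kdm2b-CXXC. Pou5f1 in Kdm2a-CXXC and Prdm14 and Nanog in Kdm2a/b-CXXC have the lowest values.

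The calibrated scale carries the error of the spike-in of each library into every promoter. Values were therefore also scaled by the trimmed mean of M-values (TMM), which sets each library to the bulk of its own promoters and so measures a promoter relative to the others. This choice moved the median over all promoters by 0.21 in Kdm2a/b-JmjC and 0.18 in Kdm2a-CXXC, to -0.0027 and -0.0029, and in the other 2 lines to 0.0012 and 0.00070. On this scale 18 of the 43 log2 fold changes of members took the opposite sign, and none of these 18 had an unadjusted p under 0.05 on either scale.

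With TMM scaling the adjusted p and fold thresholds called 0% of promoters in Kdm2a/b-JmjC and in Kdm2a-CXXC, 0.104% in Kdm2a/b-CXXC and 0.00558% in Kdm2b-CXXC, and no member in any line. For Kdm2a/b-CXXC this depended on the libraries and the test. The share of all promoters that these alternative fits called is not given here, so their calls of members describe the fits only. Nanog was called by edgeR (adjusted p = 0.0475) and Prdm14 with the replicate block (limma adjusted p = 0.0432). Nanog was also called without untreated replicate 1 (log2 fold change -0.72, limma adjusted p = 0.0337) and Prdm14 without tamoxifen replicate 3 (-0.89, limma adjusted p = 0.0395), while no member was called in the other 6 fits that left out 1 library. At an unadjusted p under 0.05, 5 of 10 members were lower in Kdm2a/b-CXXC (Prdm14, Nanog, Klf2, Pou5f1 and Tfcp2l1), where 4.97% of all promoters were lower. In Kdm2b-CXXC, the line from which those cells were made, 4 of 11 were lower (Prdm14, Tfcp2l1, Nanog and the downstream start of Esrrb) against 4.14% of all promoters. The counts were 1 of 11 in Kdm2a-CXXC (Pou5f1) against 3.25%, and 0 of 11 in Kdm2a/b-JmjC against 2.89%. No member was higher at that level in any line with all libraries. Without 1 library Zfp42 was in Kdm2a/b-CXXC (in 3 of 8 such fits, with log2 fold changes up to 0.34 over the 8) and Sox2 in Kdm2a/b-JmjC (in 1 of 6, without tamoxifen replicate 2, at 0.36). The lower members kept that level in all 8 such fits of Kdm2a/b-CXXC for Prdm14, Nanog and Klf2, in 7 for Pou5f1 and in 4 for Tfcp2l1. In Kdm2b-CXXC they did so in 6 of 6 for Prdm14, 4 for Tfcp2l1, and 2 each for Nanog and the downstream start of Esrrb. The members were chosen as a set and p-values at this level were not adjusted, so that these counts describe the libraries.

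Prdm14 had the smallest p in both lines that lose the KDM2B ZF-CxxC domain. In Kdm2a/b-CXXC its TMM-scaled reads were 73.7, 69.99, 75.7 and 70.8 untreated and 47.4, 35.9, 56.8 and 33.8 after tamoxifen, without overlap, as at 2.58% of promoters. The log2 fold change was -0.76 (95% interval -1.12 to -0.39; limma adjusted p = 0.064). In Kdm2b-CXXC they were 137, 119 and 109 untreated and 99.5, 67.7 and 90.7 after tamoxifen, again without overlap (6.3% of promoters), with a log2 fold change of -0.50 (95% interval -0.83 to -0.18; limma adjusted p = 0.406). In Kdm2a-CXXC the log2 fold change was 0.092, and in Kdm2a/b-JmjC it was -0.04. The difference between the 4 lines did not pass the adjusted threshold (F test of the interaction in limma, adjusted p = 0.629).

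Nanog was likewise lowest in Kdm2a/b-CXXC, followed by Kdm2b-CXXC. In Kdm2a/b-CXXC its TMM-scaled reads were 79.2, 96.1, 137 and 124 untreated and 63.8, 71, 86.9 and 64.7 after tamoxifen, with 1 treated library inside the untreated range (log2 fold change -0.58, 95% interval -0.89 to -0.27; limma adjusted p = 0.096). In Kdm2b-CXXC they were 125, 147 and 144 against 115, 99.7 and 124, with no overlap, as at 6.3% of promoters. The log2 fold change there was -0.30 (limma adjusted p = 0.641). It was 0.0054 in Kdm2a-CXXC and 0.12 in Kdm2a/b-JmjC. The 7 promoters nearest to Nanog were closer to their untreated level: their median ratio to the other lines in Kdm2a/b-CXXC was 1.45 untreated and 1.42 after tamoxifen, while that of Nanog itself was 1.46 and 1.01.

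The remaining members lower in Kdm2a/b-CXXC had smaller differences. Klf2 had 209, 248, 233 and 286 TMM-scaled reads untreated and 191, 165, 207 and 213 after tamoxifen, with 1 treated library above the lowest untreated one (log2 fold change -0.32; limma adjusted p = 0.158). Pou5f1 was at -0.46 (limma adjusted p = 0.347) and Tfcp2l1 at -0.30 (limma adjusted p = 0.442), both with overlapping groups. Sox2, Klf4, Tbx3 and Zfp42 were at 0.17, 0.072, 0.063 and 0.22.

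In Kdm2b-CXXC, Tfcp2l1 had 221, 215 and 239 TMM-scaled reads untreated and 207, 184 and 168 after tamoxifen, with no overlap (log2 fold change -0.28; limma adjusted p = 0.566). Klf2 was also free of overlap there, with 355, 341 and 336 against 294, 312 and 316. Its log2 fold change of -0.16 had a limma adjusted p = 0.721. Treated libraries were all below untreated ones at 6.3% of promoters in this line. Pou5f1, by contrast, was at 0.13 in this line and at -0.53 in Kdm2a-CXXC (105, 73.6 and 86.6 TMM-scaled reads untreated, and 73.5, 67.1 and 44.1 after tamoxifen, without overlap, as at 5.78% of promoters; limma adjusted p = 0.749). Without tamoxifen replicate 3 the latter value was -0.31, and it was -0.40 without untreated replicate 1.

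**Figure D5:**
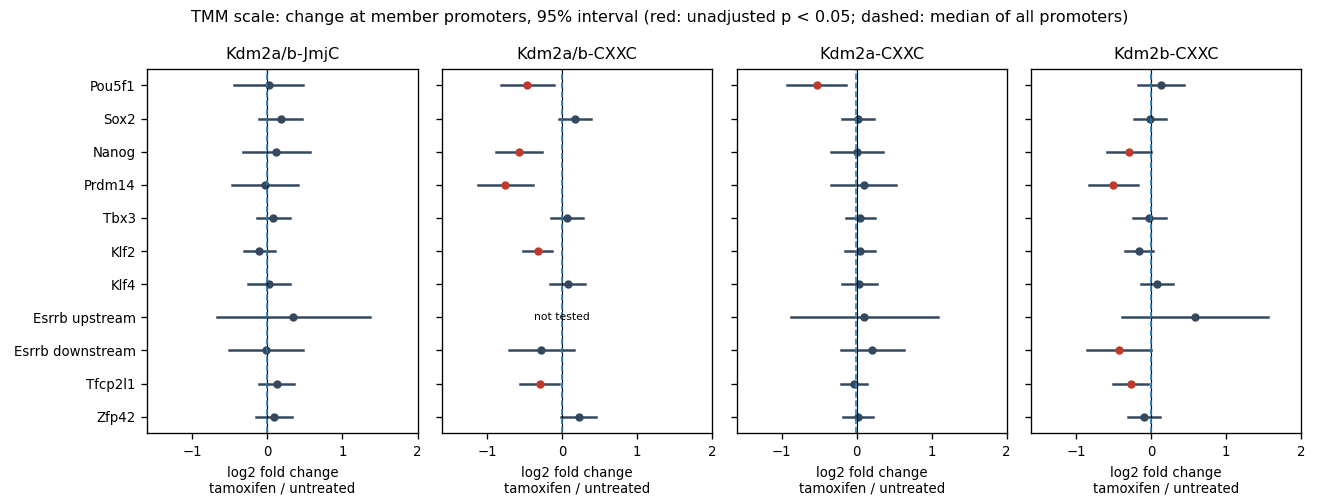
Log2 fold change of TMM-scaled reads after tamoxifen at each member promoter, with 95% intervals, 1 panel per line; red points have an unadjusted limma p under 0.05 and the dashed line is the median of all promoters. In Kdm2a/b-CXXC 5 of 10 points are red and below 0, in Kdm2b-CXXC 4 of 11, in Kdm2a-CXXC 1 and in Kdm2a/b-JmjC 0.

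A difference in response between the lines was tested directly. On the calibrated scale no member had an unadjusted p under 0.05 for the interaction of line and treatment, which 3.62% of the 16030 promoters tested had, and 0% of promoters had an adjusted p under 0.05. With TMM scaling, 4 of 10 members had an unadjusted p under 0.05 against 6.33% of promoters, namely Prdm14 (limma adjusted p = 0.629), Nanog (adjusted p = 0.664), Tfcp2l1 (adjusted p = 0.753) and Pou5f1 (adjusted p = 0.760), and again 0% of promoters passed. No member therefore had a response that differed between the lines past the adjusted threshold.

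Other genes of the pluripotency network were set beside the members. Of 24 further promoters of such genes none was called in any line on either scale. Their median log2 fold change was -0.25, 0.039, -0.25 and 0.12 on the calibrated scale (JmjC line first, then the double, Kdm2a and Kdm2b CXXC lines) and -0.04, -0.05, -0.07 and 0.019 with TMM scaling. The smallest p-values belonged to Zfp281, which encodes a zinc finger protein of the exit from naive pluripotency, and Tcf7l1, the repressor at the end of the WNT pathway, in Kdm2a/b-JmjC. Zfp281 was at -0.38 and Tcf7l1 at -0.48 on the calibrated log2 scale (limma, adjusted p = 0.0802 and adjusted p = 0.145). In Kdm2a-CXXC they belonged to Zfp281 (-0.45, limma adjusted p = 0.581) and Utf1 (-0.37, limma adjusted p = 0.593), and in Kdm2a/b-CXXC to Gbx2 and Nr0b1, which were higher (0.43 and 0.40, limma adjusted p = 0.996 for both). In Kdm2b-CXXC they were Tet1 (1.29, from 6.02 ± 3.03 to 16 ± 7.42 calibrated reads, SD, n = 3 each) and Nr5a2 (-0.45), both with an adjusted limma p of 1.00.

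With TMM scaling the 2 smallest p-values were those of Nr5a2, the orphan receptor that binds the Pou5f1 gene, and Mycn in Kdm2b-CXXC, at -0.55 and -0.36 (limma, adjusted p = 0.309 and adjusted p = 0.458), and of Gbx2 (0.35, limma adjusted p = 0.257) and Jarid2 (-0.20, limma adjusted p = 0.609) in Kdm2a/b-CXXC. In Kdm2a-CXXC they were Zfp281 (-0.27) and Utf1 (-0.19) and in Kdm2a/b-JmjC Dppa2 (0.41) and Tdgf1 (0.39), with adjusted limma p between 0.770 and 0.882. The 18 promoters of signalling genes upstream of the circuit, the LIF, FGF and WNT inputs, had no called member either, with median TMM log2 fold changes of -0.10, -0.03, -0.10 and 0.00071 in the same order of lines.

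Promoters of later and neighbouring cell states were set beside the naive factors. With TMM scaling in Kdm2a/b-CXXC, 4 of 15 formative and primed and 2 of 8 trophectoderm promoters were lower at an unadjusted p under 0.05. The count was 5 of 10 for the naive factors, 3 of 18 for the LIF, FGF and WNT inputs and 0 of 23 for other pluripotency genes. It was 0 for the endoderm, feeder and tissue lists. Of all promoters tested in this line, 4.97% were lower and 4.75% higher at that level. The LIF, FGF and WNT inputs also had 3 higher promoters and the other pluripotency genes 1, while the remaining lists had 0. The median log2 fold change was -0.29 for the naive factors and -0.27 for the trophectoderm list. The 15 promoters of formative and primed state genes had a median TMM log2 fold change of -0.22 in Kdm2a/b-CXXC and 1 was called lower there, that of Otx2, which directs the formative state and was named after its values were seen. Otx2 had 58.9 ± 11.8 TMM-scaled reads untreated and 29.3 ± 12.2 after tamoxifen (SD, n = 4 each; log2 fold change -1.06, limma adjusted p = 0.0189), and -0.97 on the calibrated scale (limma adjusted p = 0.282). The summed level of this list was 558 to 599 RPM in untreated and 461 to 536 in treated Kdm2a/b-CXXC libraries, and that of the naive factors 781 to 883 and 690 to 780, so that both lists were lower in treated cells without overlap. In Kdm2b-CXXC the naive factors were at 827 to 860 and 733 to 831, which overlap. In Kdm2a-CXXC the formative and primed list was also lower without overlap (438 to 491 untreated and 405 to 431 treated), while the naive factors overlapped (897 to 982 and 918 to 971).

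Marker promoters of other cell types were read as summed RPM, which include CpG-rich promoters that are open in many cells. The fibroblast feeder list (11 promoters) lay between 122 and 177 in all 26 libraries and the differentiated tissue list (12 promoters) between 108 and 154, against 689.5 to 982 for the naive factors. In Kdm2a/b-CXXC the feeder list was at 159 to 165 untreated and 149 to 177 after tamoxifen, and the tissue list at 130.0 to 151 and 122 to 154, both overlapping. In Kdm2b-CXXC the feeder list was higher after tamoxifen without overlap (129 to 141 untreated and 143 to 174 treated), as it was in Kdm2a-CXXC (122 to 129 and 138 to 139.6), while the tissue list overlapped in both lines.

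The primitive endoderm list (11 promoters) was lower after tamoxifen in Kdm2a/b-CXXC, at 223.5 to 267 untreated and 197 to 222.8 treated, and the trophectoderm list (8 promoters) was at 262 to 313 and 215 to 269, with overlap. In Kdm2a-CXXC the trophectoderm list was lower without overlap (203.8 to 210.5 untreated and 174 to 202.9 treated) and the endoderm list overlapped (188 to 209.9 and 195 to 219). No promoter of these 4 lists was called in any line on either scale. Of the endoderm list 2 promoters, and of the tissue list 2, had 0 reads in at least 1 library. How often the sums of other lists of promoters separate in this way was not tested. The part of cell composition in the values of the naive factors was not tested.

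Across the 26 libraries the members did not vary as a unit. As a description, the Pearson correlation of log2 RPM was highest between Tbx3 and Tfcp2l1 (0.67) and lowest between Sox2 and Klf2 (-0.64); libraries of a line share their derivation, and the lines differed in level as described above. The promoters most like Tfcp2l1 were Gm13580 (r = 0.94) and Bora (r = 0.94), and 36 of its 50 nearest were on chromosome 1, which holds 5.72% of the promoters compared. Pou5f1 was most like Gnas (0.81) and Cryba1 (0.81), Klf4 most like E130307A14Rik (0.81) and Dusp5 (0.66), and Tbx3 most like Bcs1l (0.80) and Smarcal1 (0.78). Of the 50 promoters nearest to Pou5f1, 3 shared its chromosome, which holds 4.52% of the promoters compared. The number was 17 of 50 for Klf2 (5.42% of promoters on its chromosome), 12 for Sox2 (4.81%) and 8 for Nanog (5.06%). For the remaining members it was 1 to 4.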

How the data were processed

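The authors aligned ATAC-seq reads with Bowtie 2 to joined mm10 and dm6 genomes, removed multiply mapped reads and PCR duplicates, and counted mouse reads over 400 bp intervals at 20633 promoters. Each deposited library value is a signal, the promoter's reads divided by a size factor from the Drosophila spike-in corrected by input genomic DNA. There was 1 table per line, 26 ATAC libraries in all; 26 input libraries, and the deposited columns of the authors' own DESeq2 comparison (mean, log2 fold changes, standard errors, statistics and p-values), were not used. Libraries were grouped by their labels. Whole reads were recovered from the steps between values (100% whole within 0.01 of a read). Symbols were matched for 99.1% of RefSeq identifiers.

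Within each line, log2(calibrated reads + 1) was fitted with limma 3.58.1 (R 4.3.3) with a mean-variance trend, on promoters passing edgeR 4.0.16 filterByExpr, two-sided, with Benjamini-Hochberg adjustment over all promoters tested; fold changes on this scale understate changes at low values. Calls needed a change over 1.4-fold and an adjusted p under 0.05. The interaction of line and treatment was tested over all 26 libraries. Alternatives were TMM scaling of the recovered reads, a pseudocount of 5, no filter, edgeR's quasi-likelihood test and DESeq2 1.42.0 on recovered reads, the replicate number as a block, and leaving out each library; those combined with TMM scaling were chosen after the values were seen. The limma, edgeR and DESeq2 tests were tested on simulated data, and the outcome is not given here. The simulated reads were drawn independently and divided by exact size factors, so spike-in error shared by a whole library was not covered. Depth was 1.49 to 3.03 M promoter reads, and ranges of reads cover counting error only in part, since PCR copies were removed without molecular identifiers. The members, the further lists (other pluripotency genes; LIF, FGF and WNT inputs; formative and primed state; primitive endoderm; trophectoderm; fibroblast feeder; differentiated tissue) and the tests were chosen with earlier results of these data known. Named were all members, the 2 promoters of the other pluripotency genes with the smallest p in each line, and the 2 promoters most like each of the 4 members with the highest correlation. Coordinates are 1-based, in mm10.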

Additional observations from a re-analysis of the deposited data

Results flagged for a closer look

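A single library stood apart at 1 of the 22 groups of 4 libraries in which this could be assessed, which is about what chance gives at 1 in 20 groups. Tfcp2l1 had 66.6 calibrated reads in tamoxifen replicate 4 of Kdm2a/b-CXXC, where the other 3 treated libraries had 120.5, 121.3 and 128.4. The same library was the lowest of its group at 7 of the 11 members, namely Tfcp2l1, Nanog (52.2), Prdm14 (27.3), Sox2 (142), Zfp42 (131), Tbx3 (182) and Esrrb upstream (3.21), and it had the largest spike-in size factor of the 4 (1.25). With TMM scaling it was the lowest at 3 of the 11. Without it, the calibrated log2 fold change of Tfcp2l1 in that line was 0.01 in place of -0.21, that of Nanog -0.36 and that of Prdm14 -0.47.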

How the results depend on the processing

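No member was called by limma with TMM scaling of all libraries and no block. On the calibrated scale none was called with a pseudocount of 5, no filter, edgeR, DESeq2 or without any 1 library. In Kdm2a/b-JmjC, DESeq2 gave no adjusted p for Pou5f1, Sox2, Nanog, Prdm14, Klf4 and both starts of Esrrb, so it could not call them. None differed between lines by adjusted p in any of these. The exception was the replicate block, which called 1 member in Kdm2a-CXXC, Pou5f1 (limma, adjusted p = 0.0327), where it called 188 promoters in all. Promoter by promoter, same-numbered libraries deviated together only weakly (the highest correlation of deviations, with each library's overall level removed, was 0.0725). In Kdm2a/b-JmjC these pairs were at 0.0426, 0.0589 and 0.0725, while differently numbered pairs reached at most 0.0020. In Kdm2a-CXXC the pairs of replicates 1, 2 and 3 were at 0.0435, -0.0018 and 0.0380. On the calibrated scale same-numbered libraries also shared an overall level in 2 lines. Replicates 1, 2 and 3 had median log2 deviations of -0.12, 0.0048 and 0.12 untreated and -0.20, 0.012 and 0.20 treated in Kdm2a-CXXC. In Kdm2b-CXXC the deviations were 0.41, -0.34 and -0.06 untreated and 0.43, -0.26 and -0.16 treated. With the level kept, every such pair correlated above 0.1 in Kdm2b-CXXC (0.14 to 0.73) but not in the other lines. The block raised the promoters at an unadjusted p under 0.05 to 3895 from 1488, of 17727 tested, in Kdm2a-CXXC. In Kdm2b-CXXC their number rose to 1785 from 120, of 17930 tested, and the block called 5 promoters there, none of them a member. With it, 2 of 11 members had such a p in Kdm2a-CXXC and 1 of 11 in Kdm2b-CXXC, Prdm14 (limma adjusted p = 0.414). Both counts were near the share of all promoters. TMM scaling gave 0 such members in the JmjC line, 5 in Kdm2a/b-CXXC and 4 in Kdm2b-CXXC, and moved the members' median in Kdm2a/b-JmjC to 0.08. With TMM scaling in Kdm2b-CXXC, edgeR gave 2. In Kdm2a/b-CXXC on the TMM scale, edgeR gave Nanog an adjusted p of 0.0475 and the block gave Prdm14 one of 0.0432; both passed the fold threshold too. Leaving out 1 library called a member in 2 of the 8 fits of that line. The shares of all promoters in the edgeR, block and leave-one-out fits with TMM scaling are not given here.

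Without 1 library, the members at an unadjusted p under 0.05 numbered 0 to 2 in the JmjC line, 1 to 4 in Kdm2a/b-CXXC, 1 to 2 in Kdm2a-CXXC and 0 to 1 in Kdm2b-CXXC; with TMM scaling they numbered 0 to 1, 4 to 5, 0 to 1 and 2 to 3, of which the lower ones were 0, 4 to 5, 0 to 1 and 2 to 3. The members' median ranged from -0.17 to -0.08, -0.21 to 0.01, -0.25 to -0.02 and -0.24 to 0.20 in the same order. In Kdm2a/b-CXXC the median was 0.01 without tamoxifen replicate 4. With all libraries on the calibrated scale, 20.6%, 4.65%, 8.39% and 0.669% of all promoters had an unadjusted p under 0.05, in the same order. The shares without 1 library are not given here. The calibrated counts hold both directions: in Kdm2a/b-CXXC Zfp42 was higher at that level in 2 of 8 fits and Sox2 in 1.

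TMM scaling turned the sign in Kdm2a/b-JmjC of Tfcp2l1 (0.12), Pou5f1 (0.02), Sox2 (0.17), Klf4 (0.02), Tbx3 (0.08), Nanog (0.12) and Zfp42 (0.08). It did so in Kdm2a-CXXC for Prdm14 (0.09), Esrrb upstream (0.10), Sox2 (0.02), Klf4 (0.04), Tbx3 (0.05), Nanog (0.01), Zfp42 (0.02) and Klf2 (0.04), and in Kdm2b-CXXC for Sox2 (-0.01), Tbx3 (-0.03) and Zfp42 (-0.09). Esrrb upstream in Kdm2a/b-JmjC was -0.02 with edgeR and -0.04 with DESeq2. Without 1 library, signs also turned within these ranges: in Kdm2a/b-JmjC Tfcp2l1 -0.16 to 0.05, Esrrb upstream -0.40 to 0.57, Sox2 -0.24 to 0.19, Klf4 -0.31 to 0.01 and Nanog -0.24 to 0.07. In Kdm2a/b-CXXC this held for Tfcp2l1, -0.32 to 0.01. In Kdm2a-CXXC it held for Prdm14 -0.18 to 0.04, Esrrb upstream -0.57 to 0.21, Esrrb downstream -0.13 to 0.27, Klf4 -0.25 to 0.06, Tbx3 -0.35 to 0.01 and Nanog -0.40 to 0.14. In Kdm2b-CXXC it held for Tfcp2l1 -0.47 to 0.02, Pou5f1 -0.06 to 0.47, Sox2 -0.12 to 0.22, Klf4 -0.02 to 0.44, Tbx3 -0.24 to 0.32, Nanog -0.43 to 0.02, Zfp42 -0.34 to 0.28 and Klf2 -0.24 to 0.17. The cause was not tested. The upstream start of Esrrb, with 4 to 20 reads, was limited by depth.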
